A study of Mus musculus with 6 samples.

Results

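The transcripts described here are 39 genes of the autophagy machinery and its cargo receptors, out of 55487 genes measured in J774 cells, a mouse macrophage line. They were taken as a fixed list by function: 4 genes of the ULK initiation complex, 6 of the class III PI3-kinase complexes, 7 phosphoinositide effectors and lipid transfer proteins, 10 of the conjugation systems and ATG4 proteases, 5 ATG8 proteins, 5 cargo receptors, and 2 that act in fusion with the lysosome. The study knocked down NCOA4, the receptor that carries ferritin into autophagosomes, and measured the transcriptome of 3 cultures labelled as biological replicates that received control siRNA and 3 that received NCOA4 siRNA. Both groups were transfected with liposomes and differed in the siRNA, and the labels name no erythrocytes, iron, chelator or inflammatory stimulus and no time after transfection. The model is 1 cell line with a transient, partial knockdown, and each group received 1 siRNA, so an effect of the siRNA's sequence and that of the lost NCOA4 cannot be told apart. Nothing beyond the replicate label says how separate the cultures were, so the p-values measure the spread between these samples.

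Macroautophagy encloses cytoplasm in a double membrane, the autophagosome, and delivers it to the lysosome. The ULK kinase complex starts the process, a class III PI3-kinase marks the growing membrane with phosphatidylinositol 3-phosphate, and WIPI and ATG2 proteins bind that mark and feed lipid into the membrane from ATG9 vesicles and the endoplasmic reticulum. Paired conjugation systems then attach ATG8 proteins (LC3 and GABARAP) to the membrane lipid phosphatidylethanolamine, and cargo receptors bridge a selected cargo to those ATG8 proteins. Macrophages rely on this route to degrade ferritin and to clear damaged phagosomes and microbes.

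Expression is given as TPM, a transcript abundance scaled to a total of 1000000 in every library, which corrects for library depth and gene length. The length that gave back whole reads was that of all annotated exons of a gene together. This can exceed the length of the expressed transcripts, so levels of different genes are compared only roughly. Depth on genes was between 15740333 and 18565408 reads per library. Ncoa4 itself stood at 19.7, 22.5 and 22.4 TPM in control replicates 1, 2 and 3 and at 9.63, 8.60 and 8.88 TPM in NCOA4 siRNA replicates 1, 2 and 3, which is 41.9% of the control mean (log2 fold change -1.21, SE 0.0767, adjusted p = 0.00127, limma with Benjamini-Hochberg adjustment). All 8 macrophage markers were present, with a summed level of 8400 to 8609 TPM in control and 8715 to 8825 TPM in NCOA4 siRNA libraries. Most of that sum was Lyz2, with means of 4885 and 5409 TPM. Of the 8 markers, 5 passed the test, or 62.5% against 5.42% of all genes tested. Fcgr1, Mertk, Csf1r and Adgre1 were higher and Cd14 was lower. The groups did not overlap for any of the 8, against 28.4% of all genes without overlap, with 6 higher and 2, Cd14 and Cd68, lower. The T cell and erythroid markers, 3 of 3 each, were at 0 in every library. Control replicate 1 lay a median of -0.06 on the log2 scale from the other controls over the members and -0.05 over all genes. In these bulk samples fewer cells of a type and less RNA per cell cannot be told apart, and the part of the marker shift in the values below was not tested.

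The autophagy transcripts as a group stayed close to their control levels. Of the 39 genes, 1 passed an adjusted p of 0.05, Uvrag, which rose 1.18-fold, and none passed a fold change of 1.5 as well. That is 2.56% of the members, against 5.42% of the 13829 genes tested at the adjusted p alone and 1.18% at the adjusted p and the fold change together (limma on log2(TPM + 0.5), Benjamini-Hochberg over all genes tested). At an unadjusted p of 0.05 there were 8 members, or 20.5%, against 21.6% of all genes. Of these, 6 had higher values in NCOA4 siRNA cells (Uvrag, Atg2a, Map1lc3b, Stx17, Ulk2 and Gabarapl1) and 2 had lower values (Atg4d and Wipi1). The 3 NCOA4 siRNA values lay entirely on one side of the 3 control values for 10 members, 25.6%, against 28.4% of all genes. With both directions pooled, the members' shares at the unadjusted p and without overlap lay close to those of all genes. The share at the adjusted p rests on 1 member, so these counts do not set the members apart from genes in general. For higher values alone, the members' share was 15.4% against 12.7% at the unadjusted p and 20.5% against 16.6% without overlap. For lower values alone, it was 5.13% against 8.84% and 5.13% against 11.8%. The count at the adjusted p was 0 without any 1 of the 6 libraries and 4 in limma-voom on reads rebuilt from the TPM (Uvrag, Ulk2, Atg2a and Map1lc3b), where 10.8% of all genes were called. Leaving out a library takes a sample from the test of every gene, and the share of all genes called in those fits is not given here.

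The data also bound how far the members could have moved. The 95% confidence interval of the change lay inside 1.5-fold in either direction for 36 of the 39 members, 92.3%, against 72.4% of all genes tested. Among these 36, the widest bounds were 0.754-fold for Atg10 and 1.38-fold for Ulk2. The 3 members whose interval reached beyond 1.5-fold were Wipi1 with 0.632 to 0.994-fold, Wdr45 with 0.944 to 1.67-fold and Map1lc3a with 0.945 to 1.54-fold. The median log2 fold change of the members was 0.06 and that of all genes 0.03, with 29 of 39 members above 0, against 57.4% of all genes. Setting the median of all genes to equal values in each library moved the members' median to -0.0017 and that of all genes to -0.03. Without control replicate 1 the members' median was 0.03. The median half-width of the interval on the log2 scale was 0.15 for the members and 0.20 for all genes. Median reads per gene and library were 754 for the members and 414 for all genes tested. The part of depth in the narrower intervals was not tested.

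**Figure D1:**
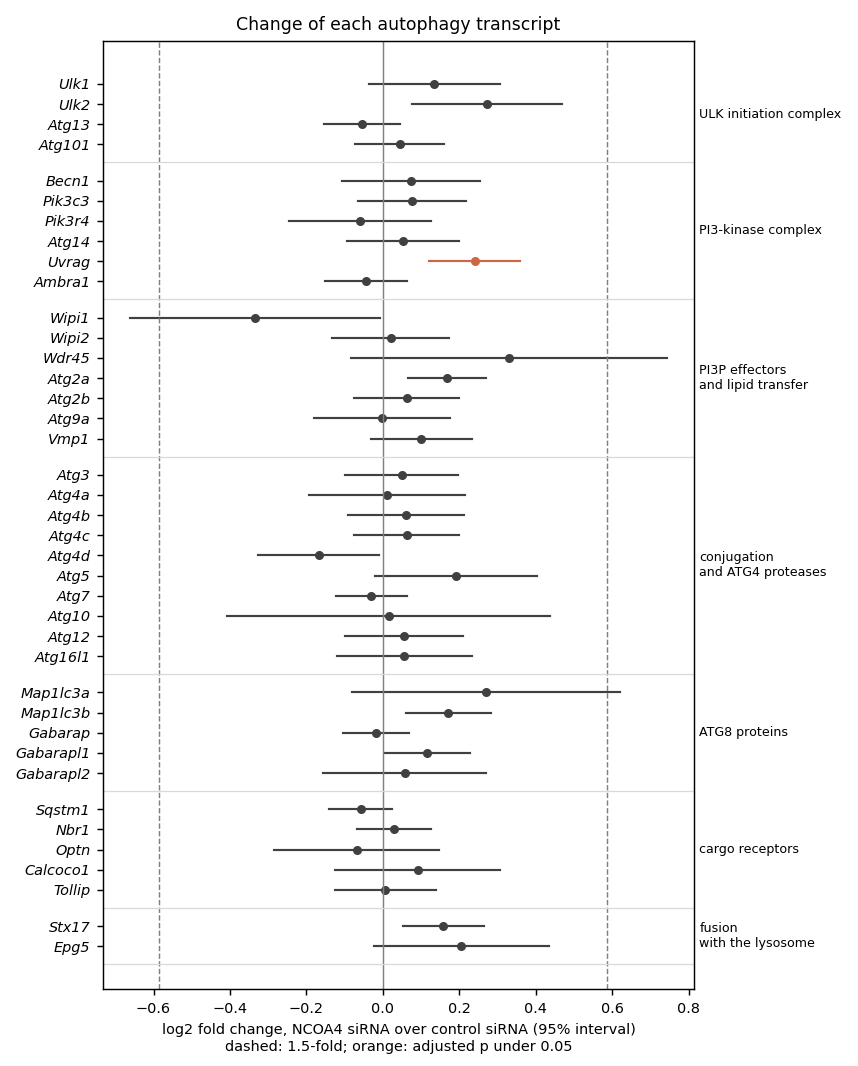
Log2 fold change of each of the 39 members, NCOA4 siRNA against control siRNA, on the log2(TPM + 0.5) scale, with 95% confidence intervals (n = 3 and 3) and the members grouped by role. Uvrag is the member past an adjusted p of 0.05, and the intervals of Wipi1, Wdr45 and Map1lc3a are the ones that reach beyond a change of 1.5-fold.

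The machinery was expressed over a wide range of levels. The median member stood at 21.9 TPM, the 56.3rd percentile of the genes tested, whose median was 16.9 TPM. The lowest was Wdr45 with a mean of 3.87 TPM and the highest Gabarap with 281 TPM over the 6 libraries. The counts behind each value ran from 42 to 4863 reads per gene and library, with a median of 754. The median coefficient of variation between replicates was 5.31% in control and 3.66% in NCOA4 siRNA libraries for the members, against 8.25% and 5.29% for all genes. Libraries of the same group differed in the members by an SD of log2 differences between 0.0957 and 0.171.

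**Figure D2:**
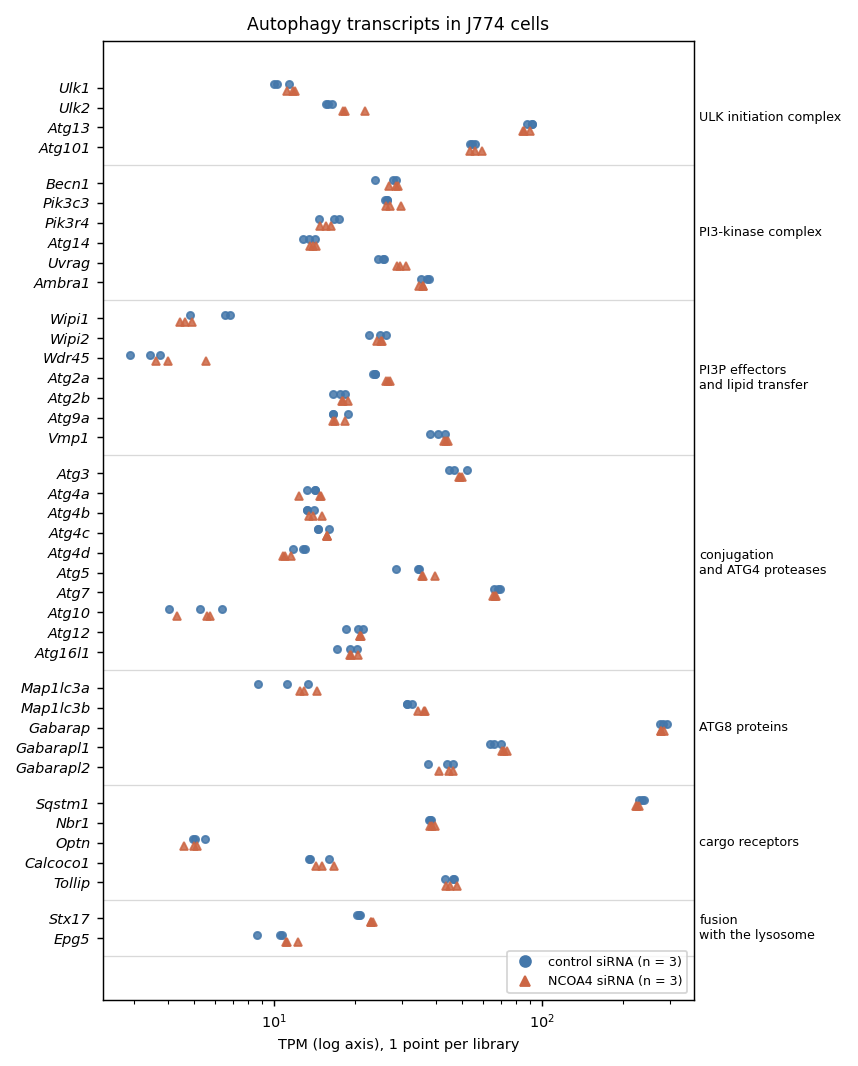
TPM of the 39 members in each of the 6 libraries on a log axis, with members grouped by role and points coloured by siRNA. Single libraries span from 2.89 TPM for Wdr45 to 291 TPM for Gabarap, and for most members the points of both groups overlap.

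In the ULK initiation complex, the ATG13 and ATG101 transcripts were several times more abundant in TPM than those of the kinases. Atg13, the subunit that links the kinase to its scaffold, had 87.7, 91.6 and 91.2 TPM in control and 90.0, 84.7 and 85.8 TPM in NCOA4 siRNA libraries (log2 fold change -0.05, adjusted p = 0.502, limma with Benjamini-Hochberg). Atg101, which stabilises ATG13, had 54.5, 53.5 and 55.8 TPM in control and 59.4, 53.8 and 55.9 TPM in NCOA4 siRNA libraries. Both sets of values overlapped. Ulk1, the main initiating kinase, had 11.4, 10.2 and 9.96 TPM in control and 11.9, 11.1 and 11.7 TPM in NCOA4 siRNA libraries (log2 fold change 0.13, 95% interval -0.04 to 0.31), which overlapped. Ulk2, its paralog, had 15.5, 16.4 and 15.8 TPM in control and 21.8, 18.3 and 18.0 TPM in NCOA4 siRNA libraries. Every NCOA4 siRNA value of Ulk2 was above every control value, with replicate 1 the highest. Its log2 fold change of 0.27 (SE 0.0824, 95% interval 0.08 to 0.47) did not pass the adjustment (adjusted p = 0.121, limma with Benjamini-Hochberg). Ulk2 made up 60.2% ± 2.14 (SD, n = 3) of the summed Ulk1 and Ulk2 TPM in control and 62.5% ± 2.11 (n = 3) in NCOA4 siRNA libraries, and these shares overlapped.

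The class III PI3-kinase genes held the member that passed the test. UVRAG is a subunit that replaces ATG14 in the PI3-kinase complex of endosomes and late autophagosomes. Uvrag (ENSMUSG00000035354, minus strand of chr7:98885021-99141141, GRCm38) had 24.4, 25.6 and 25.3 TPM in control and 31.0, 29.5 and 28.7 TPM in NCOA4 siRNA libraries, from 1193 to 1629 reads per library. The lowest NCOA4 siRNA value was above the highest control value. Means were 25.1 ± 0.633 and 29.8 ± 1.18 TPM (SD, n = 3 each), and the log2 fold change was 0.24 (SE 0.0503, 95% interval 0.12 to 0.36, adjusted p = 0.0439, limma with Benjamini-Hochberg). The exact two-sided permutation p was 0.1, the smallest that 3 against 3 samples can give. The adjusted p stayed under 0.05 in 6 of 16 alternative fits and ranged from 0.00517 to 0.163, and it was over 0.05 without any 1 of the 6 libraries, while the log2 fold change kept between 0.18 and 0.26. Uvrag also holds stretches of 150 to 345 bases that are at least 95% identical to parts of 17 other loci, 7 of them with a mean of at least 0.5 TPM, so some of its reads may have been hard to place.

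**Figure D3:**
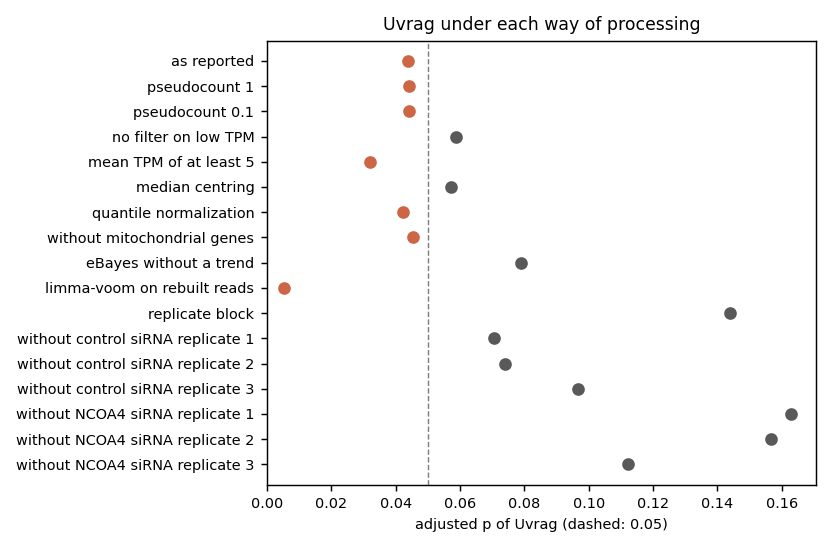
Adjusted p of Uvrag on a linear axis under limma on log2(TPM + 0.5) as reported and under each alternative, with the threshold of 0.05 marked. The reported value is 0.0439, 6 of the 16 alternatives lie below the threshold, and the 6 fits that leave out a library lie between 0.0707 and 0.163.

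The 250 bases before the RefSeq start of Uvrag are shown because it is the member that passed the test (GRCm38.p6, chr7:99141145-99141394, minus strand, 5′ to 3′). They have a GC content of 61.6% and 16 CG pairs. The letters CACGTG do not occur in them, and no letters are in capitals.
Uvrag: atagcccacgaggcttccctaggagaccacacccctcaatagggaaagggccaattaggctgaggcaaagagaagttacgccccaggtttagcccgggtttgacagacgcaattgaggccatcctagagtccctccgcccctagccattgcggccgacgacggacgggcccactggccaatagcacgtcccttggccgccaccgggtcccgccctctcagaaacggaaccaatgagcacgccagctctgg

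The other 5 genes of the complexes overlapped between the groups, and none passed the test. Pik3c3, the catalytic subunit VPS34, had 26.2, 26.4 and 25.8 TPM in control and 26.1, 27.0 and 29.8 TPM in NCOA4 siRNA libraries. Becn1, the scaffold Beclin 1, had 23.8, 28.5 and 27.7 TPM in control and 28.3, 28.8 and 26.8 TPM in NCOA4 siRNA libraries. Pik3r4, the VPS15 subunit, had 14.7, 16.7 and 17.4 TPM in control and 16.2, 15.6 and 14.8 TPM in NCOA4 siRNA libraries. These 3 make up the core shared by both complexes. Atg14, which directs the complex to the forming autophagosome, had 12.8, 13.4 and 14.2 TPM in control and 14.0, 13.6 and 14.3 TPM in NCOA4 siRNA libraries. Ambra1, a Beclin 1 partner, had 35.3, 37.0 and 37.7 TPM in control and 36.0, 35.9 and 34.8 TPM in NCOA4 siRNA libraries. The log2 fold changes of these 5 genes lay between -0.06 and 0.08, with adjusted p-values from 0.510 to 0.707 (limma with Benjamini-Hochberg).

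Among the proteins that read or extend the phosphoinositide mark, none passed the test and the members with the lowest levels were the least precise. Atg2a, a lipid transfer protein that links the growing membrane to the endoplasmic reticulum, had 23.8, 23.3 and 23.7 TPM in control and 26.6, 26.9 and 26.2 TPM in NCOA4 siRNA libraries. The groups did not overlap and each varied little, at 23.6 ± 0.245 and 26.6 ± 0.361 TPM (SD, n = 3 each). The log2 fold change of 0.17 (SE 0.0432, 95% interval 0.06 to 0.27) had an adjusted p of 0.0804 (limma with Benjamini-Hochberg). Its paralog Atg2b had 16.6, 18.3 and 17.6 TPM in control and 18.8, 17.8 and 18.1 TPM in NCOA4 siRNA libraries, which overlapped.

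Wipi1, which binds phosphatidylinositol 3-phosphate, had 6.52, 6.85 and 4.83 TPM in control and 4.92, 4.62 and 4.43 TPM in NCOA4 siRNA libraries. Control replicate 3 lay among the NCOA4 siRNA values and far from the other controls. The log2 fold change was -0.33 (SE 0.138, 95% interval -0.66 to -0.01, adjusted p = 0.223, limma with Benjamini-Hochberg). Wipi2, the paralog that recruits ATG16L1, had 22.5, 24.9 and 26.1 TPM in control and 25.2, 24.9 and 24.2 TPM in NCOA4 siRNA libraries, with full overlap. Wdr45, the related protein WIPI4, which pairs with ATG2, had 2.89, 3.74 and 3.42 TPM in control and 5.57, 3.99 and 3.60 TPM in NCOA4 siRNA libraries, from 55 to 107 reads. Its highest value came from NCOA4 siRNA replicate 1, and the other values lay close to the controls (adjusted p = 0.329, limma with Benjamini-Hochberg). Wipi2 held 72.2% ± 3.25 of the summed TPM of these 3 genes in control and 73.4% ± 2.37 in NCOA4 siRNA libraries (SD, n = 3 each). Atg9a, the scramblase of the seed vesicles, had 16.6, 18.9 and 16.5 TPM in control and 18.4, 16.9 and 16.6 TPM in NCOA4 siRNA libraries. Vmp1, an endoplasmic reticulum scramblase, had 38.1, 43.2 and 40.9 TPM in control and 42.9, 44.3 and 43.8 TPM in NCOA4 siRNA libraries. Both overlapped between the groups.

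In the conjugation systems, the E1 enzyme was the most abundant member and its values overlapped between the groups. Atg7, which activates both ATG12 and ATG8, had 66.1, 69.8 and 68.1 TPM in control and 65.6, 67.3 and 66.6 TPM in NCOA4 siRNA libraries. Atg3, the E2 for ATG8, had 52.1, 44.8 and 46.7 TPM in control and 49.2, 50.3 and 48.8 TPM in NCOA4 siRNA libraries. Atg10, the E2 for ATG12, had 5.27, 4.03 and 6.36 TPM in control and 5.61, 5.77 and 4.34 TPM in NCOA4 siRNA libraries. The values of each enzyme overlapped. The change of Atg7 had a 95% interval of -0.12 to 0.06 on the log2 scale, and that of Atg10, with far fewer reads, -0.41 to 0.44. Atg12, the ubiquitin-like protein joined to ATG5, had 18.5, 20.4 and 21.4 TPM in control and 21.0, 20.9 and 20.8 TPM in NCOA4 siRNA libraries. Atg16l1, which places the conjugate on the membrane, had 17.1, 20.4 and 19.2 TPM in control and 19.3, 19.1 and 20.5 TPM in NCOA4 siRNA libraries. Both overlapped. Atg5 had 28.4, 34.6 and 34.5 TPM in control and 39.8, 35.9 and 35.6 TPM in NCOA4 siRNA libraries. Its groups did not overlap, with control replicate 1 the lowest and NCOA4 siRNA replicate 1 the highest value (log2 fold change 0.19, adjusted p = 0.274, limma with Benjamini-Hochberg). Without control replicate 1 the log2 fold change was 0.10.

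The letters CACGTG, the core that TFEB and other basic helix-loop-helix factors bind, occurred in the 250 bases before the RefSeq start of 3 of the 33 members with an entry, Atg3, Atg5 and Atg7, which is 9.09% against 6.86% of 27025 genes (the motif is its own reverse complement, so 1 search covers both strands). All 3 are conjugation genes, and none of them passed the test, so their sites are shown with CACGTG in capitals (GRCm38.p6, plus strand, 5′ to 3′). The sites begin 94 and 71 bases before the start of Atg3, 14 before that of Atg5 and 132 before that of Atg7. The Atg3 site at 71 is also the longer form TCACGTGA, held by 1 of the 33 members (3.03%) and by 0.907% of all genes. Counts of 3 and 1 members are too few to set the members apart from all genes, and enrichment was not tested. The Atg7 site lies inside the span that GENCODE gives this gene (chr6:114643097-114860614), downstream of the gene's first annotated base. A match describes the letters alone.
Atg3, chr16:45158723-45158752: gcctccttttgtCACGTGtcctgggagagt
Atg3, chr16:45158746-45158775: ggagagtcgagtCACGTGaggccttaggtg
Atg5, chr10:44268309-44268338: agggcggagcgcttgcCACGTGgtcttggt
Atg7, chr6:114670952-114670981: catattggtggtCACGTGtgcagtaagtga

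The 4 ATG4 proteases, which prime ATG8 proteins and later release them from the membrane, were all expressed between 10.8 and 16.0 TPM. Atg4a had 13.2, 14.2 and 14.1 TPM in control and 14.8, 14.9 and 12.3 TPM in NCOA4 siRNA libraries. Atg4b, the main ATG4 in most cells, had 13.3, 14.0 and 13.3 TPM in control and 13.5, 13.9 and 15.0 TPM in NCOA4 siRNA libraries. Atg4c had 16.0, 14.6 and 14.6 TPM in control and 15.8, 15.7 and 15.7 TPM in NCOA4 siRNA libraries. Atg4a shares 2115 bases at 99.3% identity with Atg4a-ps, which had a mean of 1.24 TPM, and 508 bases at 99.4% with Syt6, which had 8.73 TPM, so its reads may be hard to place. The 3 proteases overlapped between the groups, with adjusted p-values from 0.591 to 0.962 (limma with Benjamini-Hochberg). Atg4d was the protease whose groups did not overlap, with 13.0, 11.7 and 12.8 TPM in control and 10.8, 11.0 and 11.5 TPM in NCOA4 siRNA libraries. Its log2 fold change was -0.17 (SE 0.0665, 95% interval -0.33 to -0.01, adjusted p = 0.207, limma with Benjamini-Hochberg). Atg4d took 22.8% ± 1.09 of the summed ATG4 TPM in control and 20.2% ± 0.786 in NCOA4 siRNA libraries (SD, n = 3 each). Of its exonic bases, 19.3% lie opposite Kri1, which had a mean of 73.0 TPM against 11.8 TPM for Atg4d. Whether the counting used the strand is not stated, and without strand the reads of such a pair cannot be told apart.

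The ATG8 transcripts were led by Gabarap in every library. Gabarap had 291, 282 and 276 TPM in control and 284, 279 and 276 TPM in NCOA4 siRNA libraries, a log2 fold change of -0.02 with a 95% interval of -0.11 to 0.07. Gabarapl1, a GABARAP paralog, had 69.9, 63.6 and 66.2 TPM in control and 73.6, 72.0 and 70.8 TPM in NCOA4 siRNA libraries. The groups of Gabarap overlapped, and those of Gabarapl1 did not (log2 fold change 0.12, adjusted p = 0.217, limma with Benjamini-Hochberg). Gabarapl2, also called GATE-16, had 37.3, 46.3 and 44.2 TPM in control and 44.9, 41.2 and 46.5 TPM in NCOA4 siRNA libraries, which overlapped. Map1lc3b, which encodes LC3B, the usual marker of autophagosomes, had 31.1, 31.2 and 32.6 TPM in control and 36.2, 36.4 and 34.4 TPM in NCOA4 siRNA libraries. All 3 NCOA4 siRNA values of Map1lc3b were above the controls, at 35.7 ± 1.13 against 31.6 ± 0.842 TPM (SD, n = 3 each). The log2 fold change was 0.17 (SE 0.0468, 95% interval 0.06 to 0.28, adjusted p = 0.0917, limma with Benjamini-Hochberg). Map1lc3a, which encodes LC3A, had 8.70, 11.2 and 13.3 TPM in control and 14.4, 12.9 and 12.5 TPM in NCOA4 siRNA libraries. The control values of Map1lc3a varied most and overlapped the others (log2 fold change 0.27, adjusted p = 0.347, limma with Benjamini-Hochberg).

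The order Gabarap, Gabarapl1, Gabarapl2, Map1lc3b, Map1lc3a held for TPM in 6 of 6 libraries. In rebuilt reads, Map1lc3b (1278 to 1582 per library) stood above Gabarapl1 (695 to 861) and Gabarapl2 (498 to 653). Annotated exons cover 7517 bases for Map1lc3b, 2013 for Gabarapl1 and 2325 for Gabarapl2. The rank and share of Map1lc3b therefore depend on the length used. Their summed level was 435 ± 3.08 TPM in control and 445 ± 6.99 TPM in NCOA4 siRNA libraries (SD, n = 3 each). Shares of that sum do not depend on the scaling between libraries. Gabarap made up 65.1% ± 1.32 in control and 62.8% ± 0.271 in NCOA4 siRNA libraries, Gabarapl1 15.3% ± 0.650 and 16.2% ± 0.134, and Map1lc3b 7.27% ± 0.236 and 8.02% ± 0.227 (SD, n = 3 each). For these 3 transcripts the groups did not overlap, and the exact two-sided permutation p was 0.1, the smallest possible, or 0.167 after adjustment over the 5 shares. Gabarapl2 held 9.80% ± 1.14 and 9.94% ± 0.612, and Map1lc3a 2.55% ± 0.548 and 2.98% ± 0.183, with exact permutation p-values of 0.900 and 0.375 after adjustment. No share could pass 0.05 with samples of this number. Shares of rebuilt reads, which are not corrected for length, put the difference of Map1lc3b at 1.97 percentage points in place of 0.749.

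**Figure D4:**
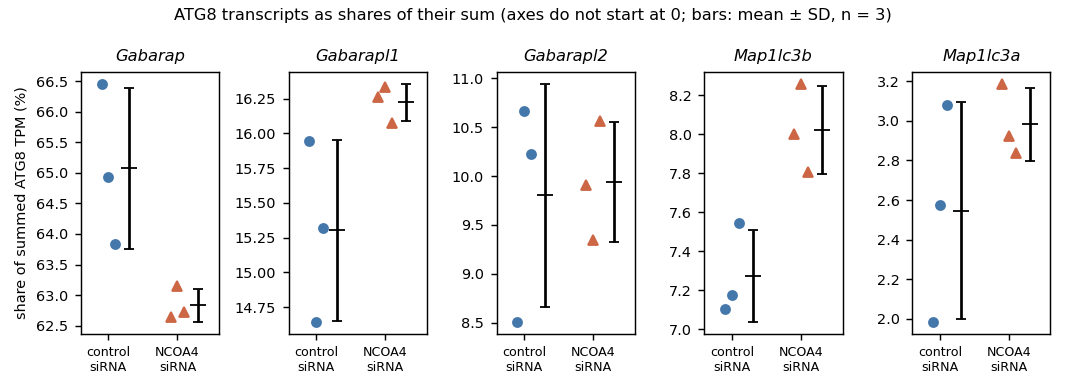
Share of each ATG8 transcript in the summed ATG8 TPM, in percent, for each library (points) with the group mean and SD (n = 3 each). Gabarap takes 65.1% in control and 62.8% in NCOA4 siRNA libraries, and Map1lc3b 7.27% and 8.02%.

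The level of Map1lc3b is uncertain because of a processed pseudogene. Gm6055 (GRCm38, chr14:48079375-48079752) matches the coding sequence of Map1lc3b over 378 bases at 99.7% identity, with 1 difference, G206A, counted from the first base of the start codon with the Map1lc3b base first. The 60 bases around it are shown with that base in capitals, because reads inside the match that miss this base have no other difference to place them by.
Map1lc3b: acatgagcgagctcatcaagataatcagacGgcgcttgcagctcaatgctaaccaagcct
Gm6055: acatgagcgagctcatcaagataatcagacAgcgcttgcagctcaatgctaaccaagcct

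Gm6055 was listed at 57.1, 86.4 and 104 TPM in control and 98.4, 108 and 104 TPM in NCOA4 siRNA libraries, above Map1lc3b on the per-length scale. In reads rebuilt from the TPM the order was the opposite, since Gm6055 is short. Map1lc3b had 1344, 1420 and 1278 reads in control and 1582, 1492 and 1560 in NCOA4 siRNA libraries, and Gm6055 had 124, 198 and 204 in control and 216, 222 and 238 in NCOA4 siRNA libraries. In RPM, reads per 1000000 reads on genes, Map1lc3b stood at 78.5 ± 2.42 in control and 89.1 ± 2.79 in NCOA4 siRNA libraries, and the sum with Gm6055 at 88.8 ± 4.76 and 102 ± 2.96 (SD, n = 3 each). Both comparisons had no overlap and an exact permutation p of 0.1, the smallest possible. In limma-voom on the rebuilt reads, an alternative test, Map1lc3b had a log2 fold change of 0.18 (Benjamini-Hochberg adjusted p = 0.0348). With the reads of Gm6055 added, which was chosen after seeing the data, it was 0.20 (adjusted p = 0.0249). Map1lc3b was thus under 0.05 in limma-voom with and without the copy, and over it, at 0.0917, in limma on log2(TPM + 0.5). Over its 17 alternative limma fits the Benjamini-Hochberg adjusted p ranged from 0.0249 to 0.272. The 2 limma-voom fits were the ones under 0.05, and limma-voom called a larger share of all genes than the reported fit.

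**Figure D5:**
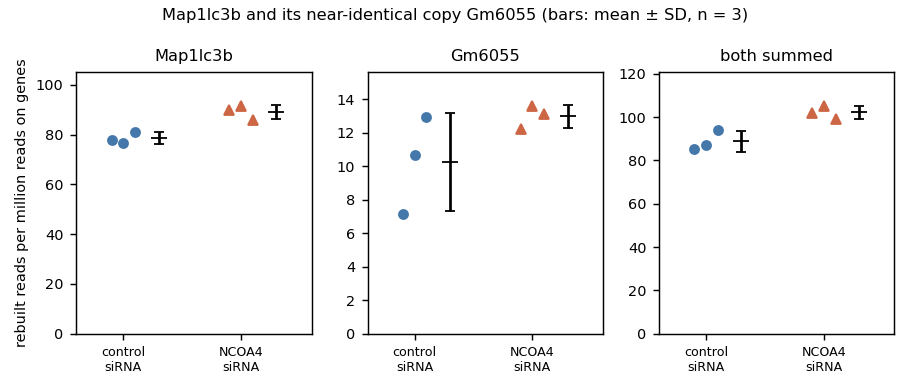
RPM of reads on Map1lc3b, on its copy Gm6055 and on their sum in each library (points), with group means and SD (n = 3 each). Map1lc3b and the sum lie higher in all NCOA4 siRNA libraries than in any control library, while Gm6055 overlaps.

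Among the cargo receptors, Sqstm1 supplied most of the transcripts. Sqstm1, which encodes p62, the receptor of ubiquitinated cargo and a substrate of autophagy, had 230.0, 239 and 235 TPM in control and 229, 223 and 225 TPM in NCOA4 siRNA libraries. Every NCOA4 siRNA value was below every control value by a small margin, and the means were 235 ± 4.57 and 225 ± 2.92 TPM (SD, n = 3 each). The ratio was 0.960-fold with a 95% interval of 0.907 to 1.02 (adjusted p = 0.382, limma with Benjamini-Hochberg). Sqstm1 took 69.5% ± 0.183 of the summed receptor TPM in control and 68.3% ± 0.351 in NCOA4 siRNA libraries (SD, n = 3 each). Nbr1, which acts with p62 on ubiquitinated cargo, had 37.6, 38.4 and 38.2 TPM in control and 38.6, 39.8 and 38.2 TPM in NCOA4 siRNA libraries. Tollip, an endosomal ubiquitin-binding adaptor, had 43.3, 46.7 and 46.6 TPM in control and 48.2, 45.4 and 43.5 TPM in NCOA4 siRNA libraries. Neither separated the groups. Calcoco1, a receptor of endoplasmic reticulum and Golgi membranes, had 16.0, 13.6 and 13.5 TPM in control and 14.3, 15.0 and 16.6 TPM in NCOA4 siRNA libraries. Optn, a receptor of mitochondria and bacteria, was the lowest, with 5.06, 5.50 and 4.96 TPM in control and 5.00, 5.14 and 4.59 TPM in NCOA4 siRNA libraries. The 4 receptors other than Sqstm1 had log2 fold changes between -0.07 and 0.09 and adjusted p-values from 0.611 to 0.965 (limma with Benjamini-Hochberg). Tax1bp1 and Rb1cc1, which NCOA4 binds or uses for delivery of ferritin, stood at adjusted p = 0.696 and 0.523.

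Neither gene of fusion with the lysosome passed the test. Both had NCOA4 siRNA values above every control value, as did 16.6% of all genes tested. Stx17, the SNARE of the closed autophagosome, had 20.7, 20.9 and 20.4 TPM in control and 23.4, 22.9 and 23.0 TPM in NCOA4 siRNA libraries. The values within each group lay close together, at 20.6 ± 0.243 and 23.1 ± 0.253 TPM (SD, n = 3 each). The log2 fold change was 0.16 (SE 0.0447, 95% interval 0.05 to 0.26, adjusted p = 0.0997, limma with Benjamini-Hochberg). Epg5, a tether between autophagosome and late endosome or lysosome, had 8.62, 10.6 and 10.5 TPM in control and 12.2, 11.2 and 11.0 TPM in NCOA4 siRNA libraries. Its groups did not overlap, with control replicate 1 the lowest value (log2 fold change 0.21, adjusted p = 0.279, limma with Benjamini-Hochberg). Without that library the log2 fold change was 0.11.

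Of 59 other genes of the pathway listed by role, 58 were tested and 3 passed an adjusted p of 0.05, and 2 of these also passed a fold change of 1.5. These are 5.17% and 3.45% of the 58, against 5.42% and 1.18% of all genes tested. Sesn1, a sestrin that restrains MTORC1 and is a p53 target, rose from 22.8, 27.6 and 27.9 TPM in control to 44.0, 43.5 and 42.7 TPM in NCOA4 siRNA libraries (log2 fold change 0.73, SE 0.0817, adjusted p = 0.00681, limma with Benjamini-Hochberg). It was the call among 23 tested genes of MTORC1, AMPK and TFEB control. Trp53inp1, a p53-induced protein that binds ATG8 proteins, rose from 5.27, 7.34 and 5.12 TPM to 12.5, 10.5 and 10.9 TPM (log2 fold change 0.89, SE 0.145, adjusted p = 0.0205). Bnip3, a receptor for mitochondria, fell from 271, 309 and 270.4 TPM to 235, 227 and 229 TPM (log2 fold change -0.30, SE 0.0586, adjusted p = 0.0363). These 2 were the calls among 21 other phagophore and receptor genes, and 0 of 12 tethering and SNARE genes passed (4 at an unadjusted p of 0.05, which 21.6% of all genes reached; limma). The count of 3 calls was 1 without control replicate 3 or NCOA4 siRNA replicate 1 or 3, and 0 without NCOA4 siRNA replicate 2. Those fits hold fewer samples for every gene, and their share of all genes called is not given here. The transcription factors of lysosome and autophagy genes had log2 fold changes of 0.17 for Tfeb, 0.12 for Tfe3 and 0.07 for Mitf, and none passed (adjusted p = 0.347, 0.180 and 0.628; limma, Benjamini-Hochberg).

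Overlap with other genes may limit the level of 7 members, for which over 10% of exonic bases are shared with another annotated gene. On the opposite strand the shares were 43.9% for Becn1, 28.3% for Gabarapl1, 19.3% for Atg4d, 17.6% for Uvrag and 17.3% for Sqstm1. On the same strand they were 31.8% for Atg9a and 24.7% for Wdr45. The gene opposite Uvrag was listed at 0 TPM in every library, and that opposite Sqstm1, Mrnip, had a mean of 8.03 TPM. Those opposite Becn1, Gabarapl1 and Atg4d had means of 0.14, 0.061 and 73.0 TPM. On the same strand, the gene sharing bases with Atg9a had a mean of 0.035 TPM and that of Wdr45 was at 0 TPM. How far overlap moved any value was not tested. Of the 39 members, 34 had no stretch of at least 150 bases with 95% identity elsewhere among the annotated transcripts.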

How the data were processed

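RNA-seq libraries were prepared by the authors from J774 cells with a stranded mRNA kit. The submitters' processing notes name Trimmomatic 0.33, FastQC, HISAT2 2.1.0, featureCounts, edgeR and the build mm10, and the authors deposited TPM per gene and library, without scaling between libraries. Of 55487 gene identifiers, 55227 were named through GENCODE M21 (GRCm38). The authors ran edgeR on counts. Since the deposited values are TPM, log2(TPM + 0.5) was tested over 13829 genes whose TPM averaged 0.5 or more, with limma 3.58.1 (R 4.3.3; lmFit, eBayes with a trend, no block, Benjamini-Hochberg over all genes tested). Fold changes are on this scale, which understates those of low genes. A call was an adjusted p under 0.05, also counted with a fold change above 1.5. The fit was checked on simulated data in which 200 genes were given a change larger than that estimated for any member. This check does not cover changes as small as those of the members.

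TPM and gene length gave back the number of reads (98.6% of genes above 0 with a GENCODE length came out whole within 0.01 reads in the 6 libraries), used for the depth and a limma-voom alternative. Shares were compared by exact permutation tests over the 20 arrangements of 6 libraries. Near-identical copies were searched with BLAST 2.17.0 in GENCODE M21 transcripts, and upstream sequences are from RefSeq (GRCm38.p6), which held 33 of the 39 members (not Map1lc3a, Becn1, Pik3c3, Epg5, Atg12 and Atg16l1). The genes named are all 39 members, Ncoa4 and up to 6 called genes of each other list; Tfeb, Tfe3, Mitf, Tax1bp1, Rb1cc1 and Gm6055 were named after their values were seen. The members and lists were chosen with earlier results of these data known. Alternatives were other pseudocounts and filters, other scalings, removal of mitochondrial genes, eBayes without a trend, limma-voom, a replicate block and leaving out each library.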

Additional observations from a re-analysis of the deposited data

How the results depend on the processing

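The knockdown of Ncoa4 kept its direction and its call under 16 of 16 alternatives, and none of the 39 members passed a fold change of 1.5 with an adjusted p under 0.05 under any of the 16. The count of called members, 1 as reported, was 0 with no filter on low TPM, with median centring and with eBayes without a trend, 4 with limma-voom (Ulk2, Uvrag, Atg2a and Map1lc3b, with 10.8% of all genes called), and 0 to 0 when any of the 6 libraries was left out. Median centring moved the members' median log2 fold change from 0.06 to -0.0017. The count of other autophagy genes called, 3 as reported, was 6 with median centring, 5 with limma-voom and 0 to 3 without 1 library, the 0 coming without NCOA4 siRNA replicate 2 and 1 without control replicate 3 or NCOA4 siRNA replicate 1 or 3. With the replicate number as a block, 0 members, 1 other autophagy gene and 161 of all genes (1.16%) were called. The counts of the remaining fits are given without the share of all genes called in the same fit. They therefore do not set these genes apart from genes in general. Deviations of same-numbered libraries correlated at 0.0283, -0.0185 and 0.0229 over 13829 genes. Values between libraries of different numbers lay from -0.0412 to 0.0202. Replicates 1 and 3 correlated best with their own number, and replicate 2 did not. With 3 libraries per group, such small values cannot decide whether same-numbered samples were paired. The share of Gabarapl2 in the ATG8 sum, 0.138 percentage points higher as reported, was -0.0349 with rebuilt reads and from -0.509 to 0.571 without 1 library, and that of Map1lc3b, 0.749 points higher, ranged from 0.631 to 1.97 over 7 alternatives. Other changes of sign were in members near 0, all with an adjusted p of at least 0.553. With median centring the log2 fold changes were -0.014 for Atg101, -0.0061 for Atg14, -0.038 for Wipi2, -0.0094 for Atg3, -0.048 for Atg4a, -0.042 for Atg10, -0.0021 for Atg12, -0.0017 for Atg16l1, -0.0015 for Gabarapl2, -0.030 for Nbr1 and -0.052 for Tollip. With quantile normalization they were -0.0011 for Atg14, -0.023 for Wipi2, -0.041 for Atg4a, -0.071 for Atg10, 0.021 for Gabarap and -0.015 for Tollip. Without mitochondrial genes they were -0.0039 for Atg4a and -0.0085 for Tollip, and with limma-voom 0.0030 for Atg9a. Leaving out 1 library gave -0.0041 to 0.12 for Becn1, -0.038 to 0.065 for Wipi2, -0.046 to 0.059 for Atg9a, -0.14 to 0.16 for Atg10, -0.036 to 0.096 for Atg4a, -0.0034 to 0.10 for Atg12, -0.011 to 0.11 for Atg16l1, -0.037 to 0.0025 for Gabarap, -0.036 to 0.12 for Gabarapl2 and -0.033 to 0.040 for Tollip. The cause of these changes was not tested. Without control replicate 1 the log2 fold changes of Atg5, Epg5 and Map1lc3a were 0.10, 0.11 and 0.11, and without NCOA4 siRNA replicate 1 that of Wdr45 was 0.16. Depth limits Atg10 (42 to 57 reads), Wdr45 and Map1lc3a most, and intervals over 3 libraries cannot show changes much under their half-width, 0.15 on the log2 scale for the median member.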
